A study of Homo sapiens with 6 samples.

Results

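Transcripts of 10 genes of DNA damage signalling and DNA end joining were followed in the established human lung adenocarcinoma line A549 after a short exposure to cisplatin, which forms platinum crosslinks in DNA. The genes were chosen by name: the damage kinases ATM, ATR and PRKDC, the checkpoint kinases CHEK1 and CHEK2, the break-binding adaptor TP53BP1, and the end-joining factors XRCC5, XRCC6, XRCC4 and LIG4. Each of the 10 had 1 probe set with a single gene name, out of 8746 non-control probe sets for 7713 named genes, and all 10 were among the 6559 that passed the filter on dim signals. The arrays named cisplatin 1 to 3 hold RNA of cultures kept at 50 µM cisplatin for 1 hour. Those named control 1 to 3 hold RNA of cultures that had a change of medium but no drug, and in both groups another 10 hours without drug followed before RNA was taken. The series description speaks of 3 independent experiments, and the cultures were otherwise the same line grown without antibiotics.

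ATM, ATR and the DNA-PK catalytic subunit encoded by PRKDC are large related kinases that stand at the head of the damage response. ATM answers double-strand breaks, ATR answers single-stranded DNA at stalled replication forks, and DNA-PK is recruited to broken ends by the Ku dimer. CHEK1, mainly below ATR, and CHEK2, mainly below ATM, carry the signal to the cell cycle, and crosslinks of the cisplatin type are known to stall forks. In classical end joining the Ku subunits XRCC6 (Ku70) and XRCC5 (Ku80) bind the ends, and XRCC4 with DNA ligase LIG4 seals them. Much of this machinery is controlled by phosphorylation of proteins already present, which an RNA array does not measure.

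The 250 bases before the start sites of ATM and ATR, the kinases that head the 2 branches, are shown here. Whether these letters bear on the array values was not tested. The sequences are those of RefSeq on GRCh38.p14, printed 5′ to 3′ on the strand of each gene, at chr11:108222817-108223066 (plus strand) for ATM and chr3:142578734-142578983 (minus strand) for ATR. Capitals mark matches on either strand to the ETS motif CCGGAAG, the CCAAT box CCAAT and the GC box GGGCGG.
ATM: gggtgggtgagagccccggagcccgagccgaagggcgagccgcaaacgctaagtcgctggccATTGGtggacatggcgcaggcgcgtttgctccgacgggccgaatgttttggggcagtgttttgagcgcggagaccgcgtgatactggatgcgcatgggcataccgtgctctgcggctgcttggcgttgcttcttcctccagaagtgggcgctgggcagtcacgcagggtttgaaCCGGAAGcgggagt
ATR: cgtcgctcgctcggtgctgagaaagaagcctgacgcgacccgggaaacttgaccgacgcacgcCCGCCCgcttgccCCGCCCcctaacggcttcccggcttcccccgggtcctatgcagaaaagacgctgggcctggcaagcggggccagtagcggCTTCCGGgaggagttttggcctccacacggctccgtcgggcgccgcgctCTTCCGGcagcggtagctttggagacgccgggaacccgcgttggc
The ATM window held 1 ETS match close to the start site and 1 CCAAT match, and the ATR window held 2 ETS and 2 GC box matches. Of the 8 genes with an entry in the promoter table (ATM, ATR, CHEK1, CHEK2, XRCC6, XRCC4, LIG4 and TP53BP1), 5 had an ETS match in this window, a motif found in 11.8% of 15843 protein-coding promoters of the same length. The CCAAT box was in 5 of the 8 (34.5% of all) and the GC box in 6 of the 8 (56% of all). The TATA box TATAAA was in 0 of the 8 (9.23% of all), and so were the E2F motifs TTTCCCGC, TTTCGCGC, TTTGCCGC and TTTGGCGC (3.72% of all). None of the motifs searched overlapped another in the printed windows, and a match is a description of the letters, not of a factor bound there.

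After cisplatin 0 of the 10 genes passed the test, in either direction. The test was limma with Benjamini-Hochberg adjustment over all 6559 probe sets at 0.05, and it called 0.290% of these. At an unadjusted p under 0.05 the count was also 0 of 10, against 5.03% of all tested probe sets. On 0 of the 10 probe sets did the 3 cisplatin values lie all above or all below the 3 control values, which was the case for 11.0% of all tested probe sets (7.42% higher and 3.57% lower after cisplatin). With background shares of this size, counts of 0 among 10 do not set these genes apart from the rest of the array. Of the 10 log2 fold changes (cisplatin minus control) 5 were positive and 5 negative, from -0.28 for CHEK1 to 0.33 for LIG4, with a median of -0.011 beside 0.040 over all tested probe sets. The median size of the change, without its sign, was 0.13 for the 10 genes and 0.11 over all tested probe sets. Every adjusted p of the 10 was 0.999 in limma.

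**Figure D1:**
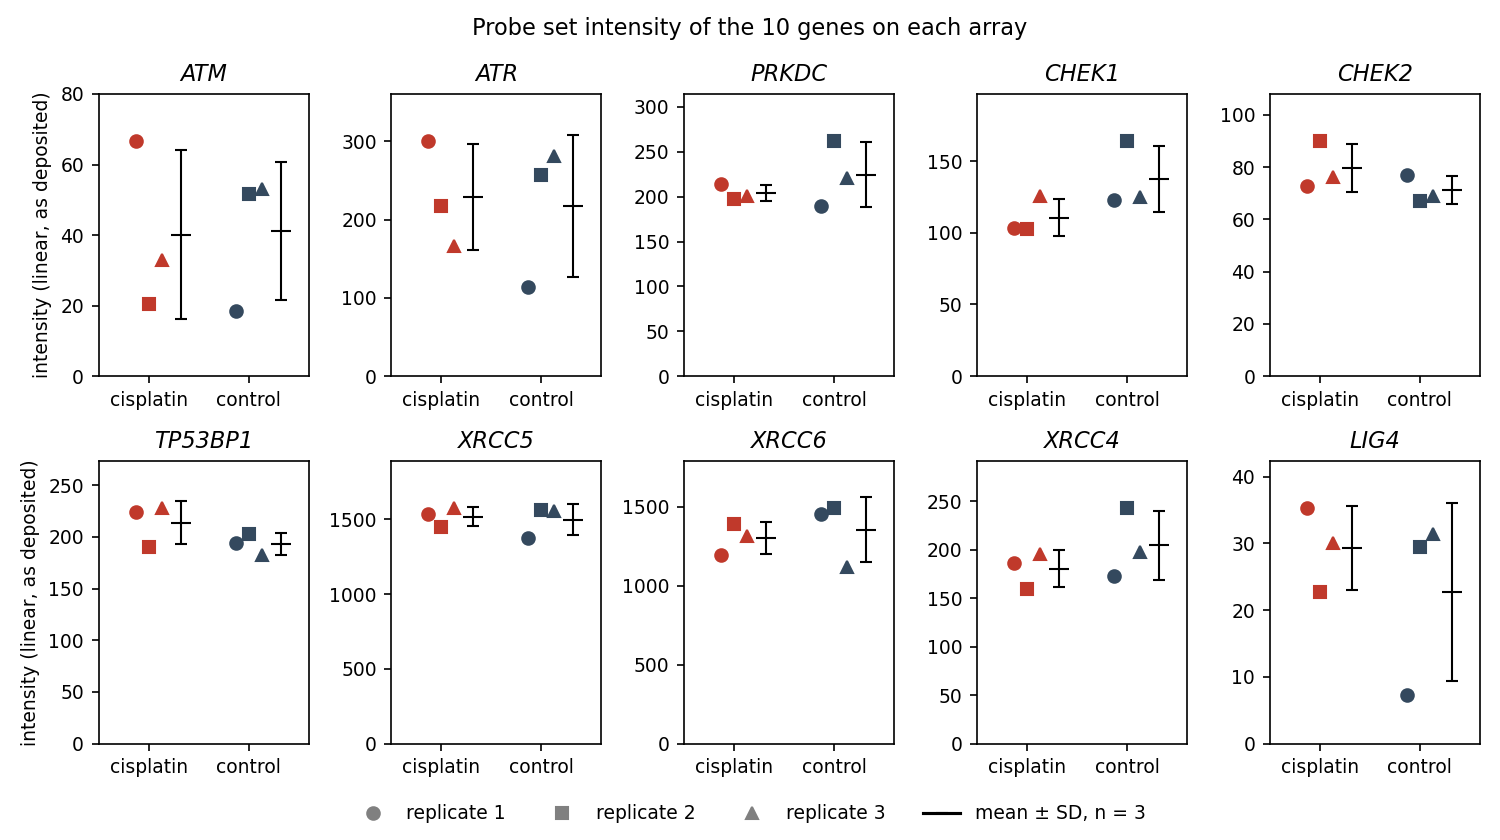
Probe set intensity of each of the 10 genes (vertical axis, linear deposited units) on the 3 cisplatin arrays (red) and the 3 control arrays (blue), with symbols for the replicate number and the mean ± SD of each group in black. In each panel the groups overlap, and the widest scatter relative to the mean is that of ATM, ATR and LIG4, each lowest on control 1.

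The same arrays registered a change of other genes. CDKN1A, the p21 inhibitor of cyclin-dependent kinases and a target of p53, averaged 1422 ± 48.5 on the cisplatin arrays and 257 ± 21.4 on the control arrays (mean ± SD, n = 3 each). Its log2 fold change was 2.42 (95% interval 2.19 to 2.64, adjusted p = 4.74e-06 in limma). GAPDH, a glycolytic enzyme gene, averaged 7451 ± 205 after cisplatin and 7691 ± 522 in control cells, a log2 fold change of -0.044. The epithelial keratin genes KRT8 (1957 after cisplatin, 2145 in control cells) and KRT18 (5595 and 5810) were bright, while EPCAM (32.7 and 33.3) and CDH1 (37.2 and 37.3) were dim. The 8 measured markers of blood, vessel and stromal cells, which the line should lack, had group means from 1.25 (COL3A1) to 102 (COL1A1). An intensity within that range need not show expression, and those of ATM, LIG4 and CHEK2 lie in it.

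ATM (probe set 212672_at, Entrez gene 472, chromosome 11, 108223067 to 108369102, a span of 146 kb on GRCh38.p14) phosphorylates CHEK2, p53 and the histone H2AX at double-strand breaks. Its intensity was 66.8, 20.5 and 33.1 on cisplatin 1 to 3, against 18.4, 51.7 and 53.2 on control 1 to 3. Both groups held high and low arrays, and they overlapped almost fully. The means were 40.1 ± 23.9 after cisplatin and 41.1 ± 19.6 in control cells (SD, n = 3 each), a log2 fold change of -0.044 with an SE of 0.37. Taken on intensities with a constant added before log2, the 95% interval allowed anything from a 0.546-fold to a 1.73-fold level after cisplatin. A change of ATM within these limits was not excluded here. Leaving out 1 array at a time moved the value between -0.41 (without control 1) and 0.25 (without cisplatin 2).

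ATR (209903_s_at, Entrez gene 545, chromosome 3, 142449235 to 142578733, 129.5 kb) acts with its partner ATRIP on single-stranded DNA coated by replication protein A. ATR intensities were 300.9, 217.6 and 166.6 on cisplatin 1 to 3, against 114, 257 and 281 on control 1 to 3. Control 1 was the lowest of the 6 arrays and cisplatin 1 the highest, with the other 4 between them. Group means were 228 ± 67.8 after cisplatin and 218 ± 90.2 in control cells, with a log2 fold change of 0.12 (SE 0.31, 95% interval -0.58 to 0.82). The sign rested on single arrays, since the value was -0.26 without control 1 and -0.088 without cisplatin 1. PRKDC (208694_at, Entrez gene 5591, chromosome 8, 47773111 to 47960136, 187 kb) was steadier. Its intensities of 215, 198 and 200.2 on cisplatin 1 to 3 all lay inside the range of 189.97, 262 and 221 on control 1 to 3. For PRKDC the log2 fold change was -0.12 (SE 0.14, 95% interval -0.44 to 0.20), a level between 0.74-fold and 1.15-fold.

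Part of the scatter of ATM, ATR and LIG4 ran with a measure of the arrays themselves. The signal of the 3′ over that of the 5′ ACTB control, a ratio which depends on RNA integrity and on the labelling reaction, was 3.67, 2.67 and 2.94 on cisplatin 1 to 3 and 2.20, 2.98 and 2.95 on control 1 to 3. The array with the lowest ratio, control 1, was the lowest array for 5 of the 10 genes, and on the log2 scale it lay 0.70 under the mean of ATM, 0.83 under that of ATR and 0.93 under that of LIG4. Control 1 was also the dimmest array in general, with a median deviation of -0.050 (log2) over all tested probe sets, the lowest of the 6 arrays. Over the 6 arrays the log2 ratio and the log2 intensity of ATM had a Pearson r of 0.875 (exact permutation p = 0.00278, adjusted over 10 genes 0.0278) and a Spearman rho of 0.943 (exact p = 0.0167, adjusted 0.146). Without control 1 and cisplatin 1, the arrays farthest from the median ratio, r was 0.879 over the remaining 4.

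LIG4 had an r of 0.911 with the same ratio (exact permutation p = 0.00694, adjusted 0.0347; rho 0.829, exact p = 0.0583, adjusted 0.146), and 0.964 without those 2 arrays. ATR had an r of 0.836 (exact permutation p = 0.0319, adjusted 0.106; rho 0.886, exact p = 0.0333, adjusted 0.146), which was 0.155 without them and so rested on them. For the other 7 genes r ran from -0.572 (XRCC6) to 0.780 (XRCC5), with 0 adjusted p under 0.05. Without the same 2 arrays r was 0.984 for XRCC5, -0.936 for CHEK2, 0.871 for XRCC4 and 0.811 for CHEK1, so the values over 4 arrays do not set ATM and LIG4 apart. Such relations were common on these arrays: 6.10% of all tested probe sets had an r at least as high as that of ATM, and 3.49% one at least as high as that of LIG4. The relation was looked for after the values had been seen. With the ratio as a covariate in limma, the log2 fold change of ATM was -0.56 (SE 0.18, unadjusted p = 0.0110, adjusted p = 0.24), that of ATR -0.27 and that of LIG4 -0.021.

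**Figure D2:**
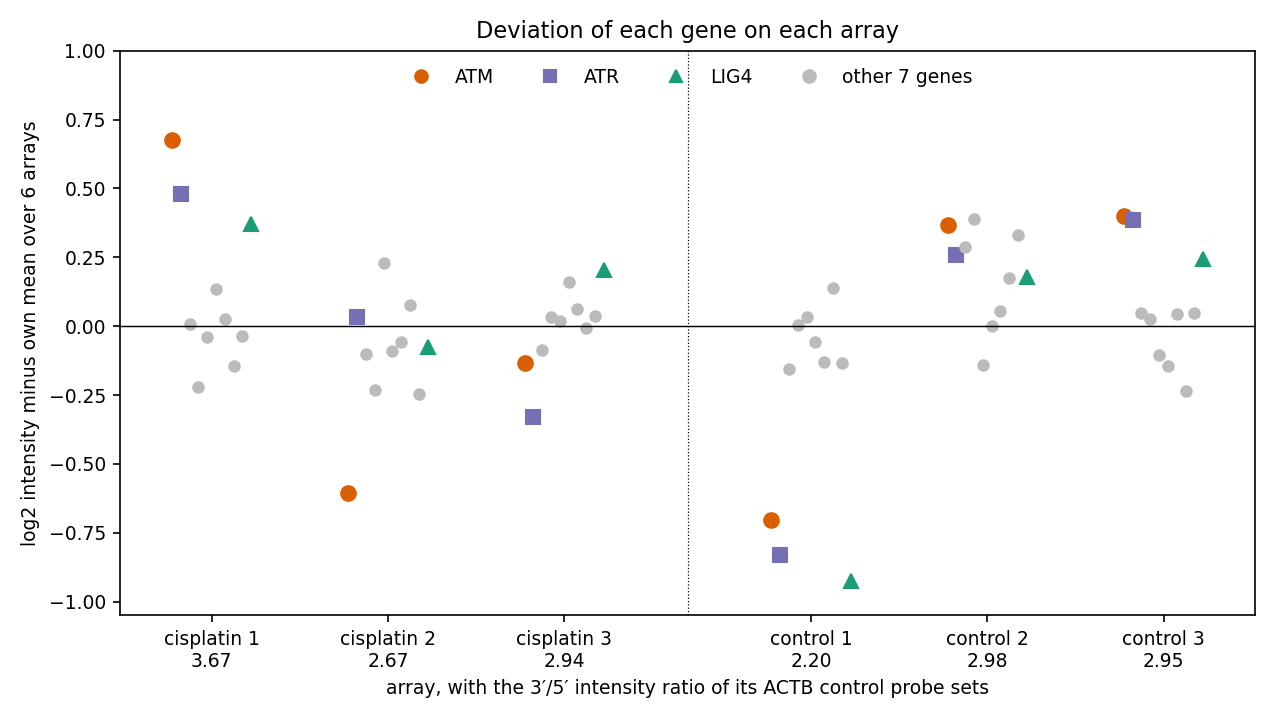
Log2 intensity of each gene minus its own mean over the 6 arrays (vertical axis), by array, with the ACTB 3′/5′ signal ratio under each array name. ATM, ATR and LIG4 (coloured) lie 0.70 to 0.93 below their means on control 1 and above them on cisplatin 1, control 2 and control 3, and the other 7 genes (grey) all lie within 0.39 of 0.

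Among the checkpoint kinases CHEK1 had the lowest unadjusted p of the 10 genes. CHEK1 (205393_s_at, Entrez gene 1111, chromosome 11, 125625136 to 125681124, 56 kb) holds back CDC25 phosphatases when forks stall. It had 103, 103 and 126 on cisplatin 1 to 3, against 123, 164 and 125 on control 1 to 3. Cisplatin 1 and 2 lay below all control arrays, cisplatin 3 lay just above control 1 and control 3, and so the groups overlapped. The means were 111 ± 13.2 after cisplatin and 137 ± 23.2 in control cells, a log2 fold change of -0.28 (SE 0.16, 95% interval -0.63 to 0.069, unadjusted p = 0.104 in limma). CHEK1 ranked 648 of the 6559 tested probe sets by p. Leaving out control 2, its highest array, gave -0.16. With each array centred on its median CHEK1 was the 1 gene of the 10 whose groups no longer overlapped, as was the case for 659 of the 6559 tested probe sets under that scaling.

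CHEK2 (210416_s_at, Entrez gene 11200, chromosome 22, 28687742 to 28741834, 54.1 kb) relays ATM signalling to p53 and CDC25. Intensities were 72.8, 90.1 and 76.4 on cisplatin 1 to 3, against 77.1, 67.1 and 69.1 on control 1 to 3. Cisplatin 2 was the highest array, and control 1 lay above the other 2 cisplatin arrays. The log2 fold change was 0.14 (SE 0.15, 95% interval -0.18 to 0.47). RefSeq names 6 pseudogenes after CHEK2, and whether the probe set also reads any of them was not tested. TP53BP1 (203050_at, Entrez gene 7158, chromosome 15, 43403061 to 43510640, 107.6 kb), which encodes 53BP1 and favours end joining over resection, had 224, 190 and 228 on cisplatin 1 to 3, against 194, 203 and 182 on control 1 to 3. Of its cisplatin arrays 2 lay above all 3 control arrays and cisplatin 2 lay below 2 of them. Its log2 fold change was 0.13 (SE 0.13, 95% interval -0.15 to 0.42).

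Both Ku genes had fold changes near 0, and XRCC5 had the smallest SE of the 10 genes in limma. XRCC5 (208642_s_at, Entrez gene 7520, chromosome 2, 216109348 to 216206293, 96.9 kb) had 1535, 1445 and 1574 on cisplatin 1 to 3, against 1375, 1564 and 1552 on control 1 to 3. The means of XRCC5 were 1518 ± 66.2 after cisplatin and 1497 ± 106 in control cells, and its 95% interval placed the level after cisplatin between 0.894-fold and 1.15-fold of the control level (log2 fold change 0.022, SE 0.082). XRCC6 (200792_at, Entrez gene 2547, chromosome 22, 41621295 to 41664041, 42.8 kb) had 1193, 1394 and 1314 on cisplatin 1 to 3, against 1453, 1492 and 1119 on control 1 to 3. The widest gap for XRCC6 was inside the control group, between control 3 and the other 2, and its log2 fold change was -0.050 (SE 0.12), with an interval of 0.803-fold to 1.16-fold. RefSeq names 5 pseudogenes after XRCC6, which the probe set may share bases with, and this was not tested.

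The ligation pair lay on opposite sides of 0. XRCC4 (205072_s_at, Entrez gene 7518, chromosome 5, 83077547 to 83374473, 296.9 kb) steadies DNA ligase IV. It had 186, 159 and 196 on cisplatin 1 to 3, against 173, 243 and 198 on control 1 to 3, so that all but control 2 and cisplatin 2 fell in a narrow band. The log2 fold change of XRCC4 was -0.16 (SE 0.15, 95% interval -0.51 to 0.18). LIG4 (206235_at, Entrez gene 3981, chromosome 13, 108207442 to 108218349, 10.9 kb) is the ligase itself. Its intensities were 35.3, 22.8 and 30.1 on cisplatin 1 to 3, against 7.36, 29.4 and 31.3 on control 1 to 3. A single array, control 1, stood far below the other 5, and without it the log2 fold change was -0.046 in place of 0.33 (SE 0.31, 95% interval -0.36 to 1.03). The mean log2 intensity of LIG4, 5.19, was just above the limit of 5.15 for being tested, and its value is smaller than the ratio of means because an offset of 11.8 was added before taking log2.

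**Figure D3:**
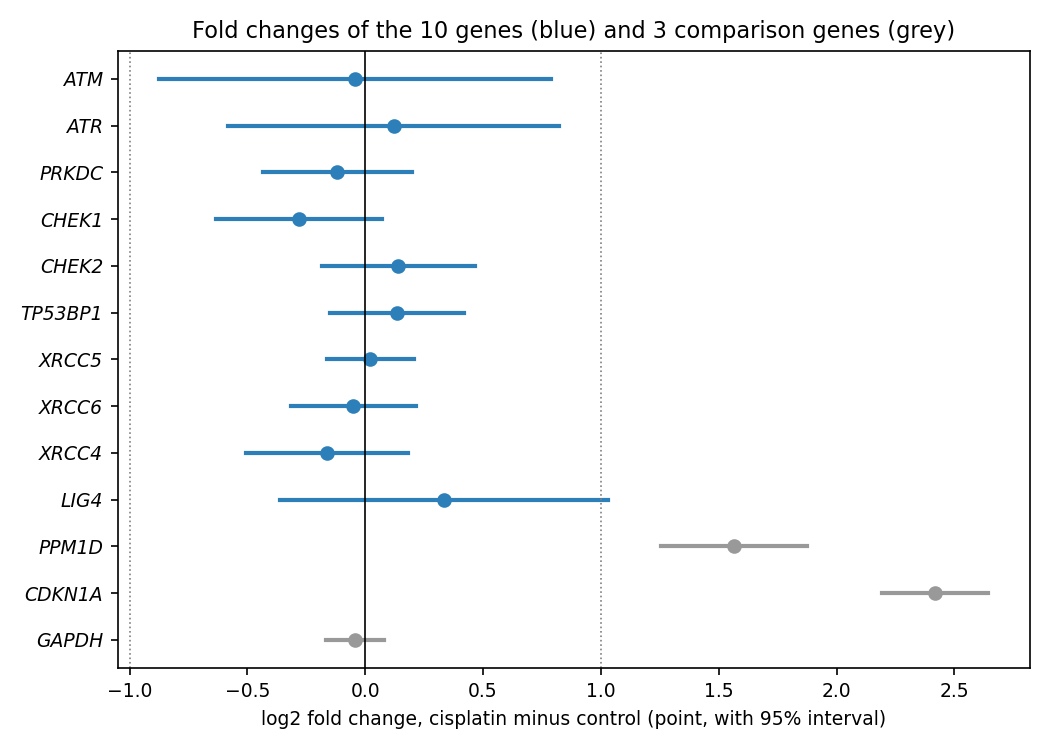
Log2 fold change, cisplatin minus control, with its 95% interval from limma (horizontal axis) for the 10 genes (blue) and for PPM1D, CDKN1A and GAPDH (grey); dotted lines mark a change of 2-fold. All 10 intervals hold 0, they are narrowest for XRCC5 and widest for ATM, and PPM1D (1.56) and CDKN1A (2.42) lie far to the right.

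The intervals say how large a change the values leave room for. For 9 of the 10 genes the whole 95% interval lay within 2-fold in either direction, while this held for 97.4% of all tested probe sets. LIG4 was the exception, with an upper limit of 2.04-fold. These folds are of intensities with the offset added, which makes changes of dim genes smaller. With a smaller offset the SE of ATM was 0.42 in place of 0.37, and that of LIG4 0.39 in place of 0.31. The limits given for ATM and LIG4, and the place of ATM among the 9, therefore depend on the offset chosen. Within 1.5-fold lay 6 of the 10 (CHEK2, PRKDC, TP53BP1, XRCC4, XRCC5 and XRCC6), beside 66.5% of all tested probe sets. The wider intervals of ATM, ATR, CHEK1 and LIG4 hold a 1.5-fold change in 1 direction or both, so that a change of that size was not excluded for them with 3 arrays a group. Whether a 1.5-fold change would have passed the test, for these or for the other 6 genes, is a separate question that the intervals do not answer. The median SE was 0.15 for the 10 genes and 0.17 for all tested probe sets.

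Some of these genes have a neighbour that starts within 1000 bases on the other strand. PRKDC and XRCC5 had no entry in the promoter table and were not searched for one. The probe set of a neighbour reads its own transcript and is not a second measure of the gene beside it. The start of ATM lies 429 bases from that of NPAT, a histone gene regulator. NPAT averaged 89.4 ± 20.0 after cisplatin and 88.6 ± 5.28 in control cells, with a log2 fold change of -0.0052. TP53BP1 starts 314 bases from MAP1A, a microtubule protein gene, which averaged 140 ± 38.8 after cisplatin and 113 ± 2.87 in control cells (log2 fold change 0.26, adjusted p = 0.999). The other such neighbours in the promoter table, LOC118567325 for CHEK1, HSCB for CHEK2, DESI1 for XRCC6, TMEM167A for XRCC4 and ABHD13 for LIG4, had no probe set with a single gene name.

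Profiles over the 6 arrays were compared with those of 5806 other tested genes by the root mean square difference of log2 values, each centred on its own mean. Nearest to ATM were TIA1 (0.0999) and TPR (0.118), where the median over all genes was 0.539. TPR, a nuclear pore gene, had 390, 196 and 213 on cisplatin 1 to 3 and 146, 331 and 346 on control 1 to 3, the same order of low and high arrays as ATM within the control group. For ATR the nearest were STAM2 (0.0829) and SCFD1 (0.0972), against a median of 0.472. CHEK1 lay nearest to PWP2 (0.0517) and NFIL3 (0.0610), with a median of 0.275, and LIG4 to DAPP1 (0.0616) and IVNS1ABP (0.0941), with a median of 0.444. With 6 arrays and this many genes, close profiles may be common, but how often they arise was not tested. Of these 8 genes 0 passed the test, where 0.290% of all tested probe sets did. They were picked for lying near genes that had not passed, so this count is no separate result.

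In the wider pathway 50 genes of 6 lists were tested besides the 10, and 1 of them, PPM1D, passed. The lists were chosen with earlier results of these data known, so this count is a description and not an independent finding. PPM1D, the WIP1 phosphatase that removes the phosphate groups placed by ATM and its partners, had 500.3, 391 and 491 on cisplatin 1 to 3, against 132, 155 and 155 on control 1 to 3. The groups did not overlap, and the log2 fold change of PPM1D was 1.56 (SE 0.14, 95% interval 1.26 to 1.87, adjusted p = 0.00122 in limma). The other 7 phosphatase genes tested did not pass, and the highest fold change among them was that of PPP2CB, a catalytic subunit of PP2A, with 0.21. Of all 6559 probe sets 0.213% were called higher and 0.0762% lower.

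Among ATM activation and break marking genes 0 of 8 tested genes passed, with log2 fold changes of -0.070 (KAT5) to 0.082. KAT5, which acetylates ATM, and H2AX, the histone marked at breaks (0.071), had the lowest unadjusted p of that list. In the ATR activation and fork list 0 of 11 passed. RPA1, a subunit of the protein that coats single-stranded DNA, had 0.11, and RAD9A, part of the clamp that activates ATR, had -0.36. RAD9A was at 39.2, 108 and 36.1 on cisplatin 1 to 3 and at 72.6, 74.0 and 73.4 on control 1 to 3, a wide spread after cisplatin around a tight control group. TOPBP1 of the same list had 378, 259 and 299.99 on cisplatin 1 to 3 and 191, 377 and 343 on control 1 to 3, with control 1 lowest as for ATR.

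Among end-joining partners 0 of 8 tested genes passed, from -0.26 for LIG3, the ligase of the alternative pathway, to 0.37 for POLM, a gap-filling polymerase. LIG3 had 55.9, 61.6 and 68.8 on cisplatin 1 to 3, all below the 88.3, 69.3 and 73.2 on control 1 to 3 (unadjusted p = 0.120). Of the substrates and effectors of the checkpoint kinases 0 of 10 passed, with a median of -0.11. CDC25B, a phosphatase that starts mitosis, had 780, 870.1 and 881 on cisplatin 1 to 3, all below the 1128, 1133 and 1055 on control 1 to 3. Its log2 fold change was -0.39 (SE 0.089, unadjusted p = 0.00161, adjusted p = 0.25). CDC25C, its relative, had 105, 125 and 138 after cisplatin, below 162, 168 and 164 in control cells, with -0.40 (SE 0.14, adjusted p = 0.73). Such separation was seen for 3.57% of all tested probe sets in the lower direction. In the list of related kinases and their assembly factors 0 of 5 passed, and the lowest unadjusted p values were those of the ATPase genes RUVBL2 (-0.20) and RUVBL1 (-0.25).

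**Figure D4:**
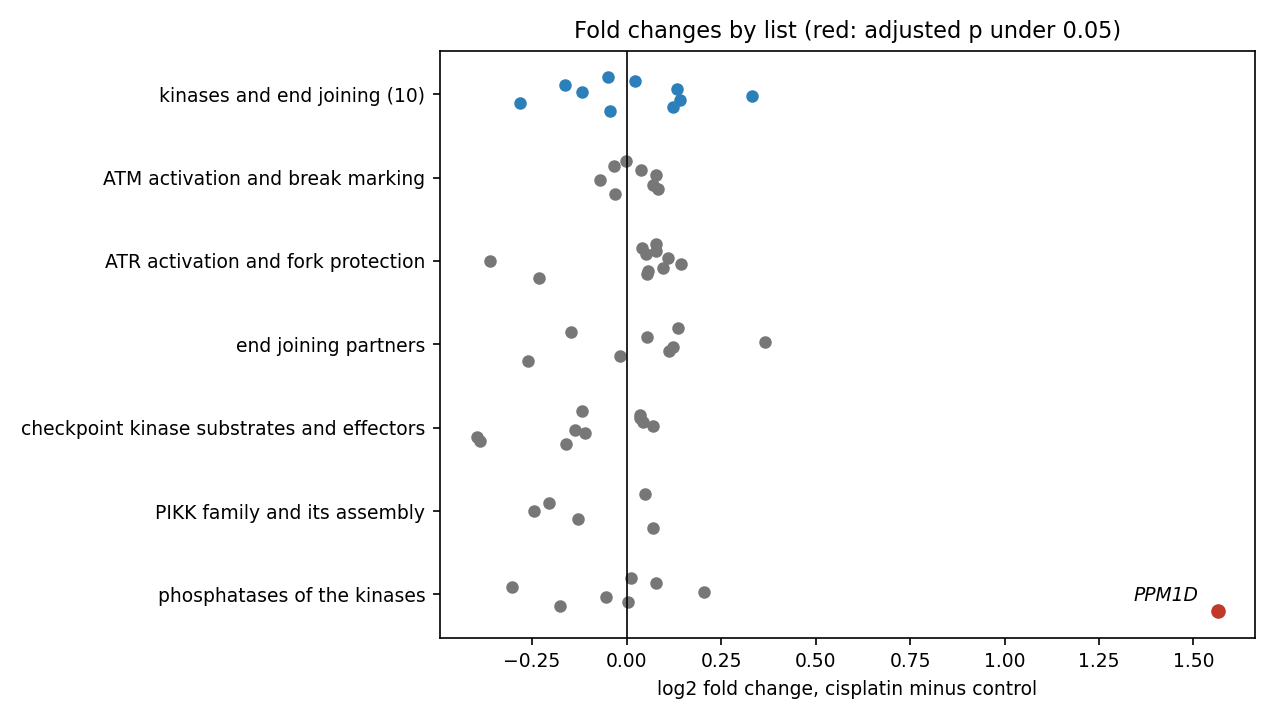
Log2 fold change, cisplatin minus control (horizontal axis), of each tested gene of the 10 and of 6 wider lists of the pathway, 1 point a gene, with genes at an adjusted p under 0.05 in red. PPM1D, at 1.56, is the 1 red point, and the 10 genes (blue) spread from -0.28 to 0.33.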

How the data were processed

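Messenger RNA was measured on 6 short-oligonucleotide arrays, 3 of cisplatin-treated and 3 of control cells, grouped by the sample titles. The authors deposited intensities for each probe set, taken here as linear, from -512.3 to 9153, of which 1.37% were at or below 0. Values below 0 mean that some signal had been subtracted, but what was subtracted is not known. The software and any scaling by the authors are not given in the labels or files used here. Per the labels' protocols, biotin-labelled target was made from oligo-dT-primed cDNA. Values at or below 0 were set to 0, an offset of 11.8 (the 10th percentile of positive values) was added and log2 taken. The arrays differed in their 75th percentiles by at most 0.15 (log2), less than the 0.3 at which they would have been centred, and no further scaling was applied. Leaving out 47 control probe sets and the 25% with the lowest mean log2, 6559 of 8746 were tested with limma 3.58.1 in R 4.3.3 (lmFit, eBayes with an intensity trend, 4 residual and 5.54 prior degrees of freedom), two-sided, with Benjamini-Hochberg adjustment. An exact test of 3 against 3 arrays cannot go below 0.1 and was used for no single gene.

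Gene names came from the platform's probe table, updated through Entrez identifiers to RefSeq (7840 probe sets with 1 symbol, 388 with several, 518 with none; 7838 matched, 0 symbols changed). In the lists a gene was represented by its brightest probe set. The members and lists were chosen with earlier results of these data known. Named were all 10 members, from each list the genes past the threshold or else the 2 with the lowest unadjusted p, the 2 nearest profiles of ATM, ATR, CHEK1 and LIG4, and CDKN1A, PPM1D and GAPDH; PPP2CB, TOPBP1, NPAT, MAP1A and the markers shown were picked after their values were seen. The fit was tested on simulated data with independent noise for each probe set and array. Variation shared across an array was not simulated, and the outcome is not given here. The number of arrays limits the precision. Figures were drawn with matplotlib 3.10.9 in Python 3.11.15. Alternatives covered scaling, offset, filter, variance prior, replicate number, the 3′/5′ ratio, an unmoderated test, means over probe sets and left-out arrays.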

Additional observations from a re-analysis of the deposited data

How the results depend on the processing

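Under 19 alternatives, 0 of the 10 genes passed in limma, at counts of 3 to 47 calls over all tested probe sets; of 184 fold changes of the 10 genes, 164 kept their sign and 20 did not. Against 19 calls over all tested probe sets there were 11 with median centring, 8 with no intensity trend in eBayes, 47 with the 3′/5′ ratio as a covariate, 3 with an ordinary test without moderation, and 6 to 18 without 1 array; the cause was not tested. In the wider lists PPM1D was the 1 call under all alternatives but the ordinary test, which gave 0. Centring on the median left 1 of the 10 genes with groups that did not overlap, against 0. CHEK1, CHEK2, PRKDC, TP53BP1 and XRCC4 kept their sign throughout. The sign of XRCC5 turned with centring on the median (-0.051) and on the 75th percentile (-0.023), with the covariate (-0.034) and without control 1 and cisplatin 2 together (-0.0031), and with that covariate so did those of ATR (-0.27), LIG4 (-0.021) and XRCC6 (0.031). Without control 1 and cisplatin 2, ATR had -0.25. Without 1 array the log2 fold change ran from -0.41 to 0.25 for ATM, from -0.26 to 0.35 for ATR, from -0.046 to 0.45 for LIG4, from -0.038 to 0.056 for XRCC5 and from -0.18 to 0.025 for XRCC6. The filter at the 50th percentile left out ATM and LIG4, and LIG4 also fell under the filter without cisplatin 1, cisplatin 3, control 2 or control 3.

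With the replicate number as a block, 5 probe sets passed and 0 of the 10 genes. Deviations of equally numbered arrays correlated at -0.56, -0.31 and -0.12, and 0 of 6 arrays correlated best with its own number. These values gave no sign of pairing by number. They cannot exclude it, since each group has few arrays and the deviations within a group cancel each other. ATM and LIG4 were dim, with mean log2 intensities of 5.62 and 5.19 and SEs of 0.37 and 0.31 in limma. ATR was brighter, at 7.81, and had an SE of 0.31. Whether signal over background limits the precision for ATM and LIG4 was not tested.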
